A study of Homo sapiens with 12 samples.

Results

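The 8 genes SCUBE1, LCN15, MRO, DPEP1, VIT, GNG7, GRID1 and KIAA1199 were followed across RNA-seq libraries of Ishikawa cells, a line established from a human endometrial adenocarcinoma. They were chosen by their counts in these libraries, which were low in cells carrying a control hairpin (shNC) and several-fold higher in cells carrying a hairpin against ARID1A (shARID1A) under each of 3 treatments. They are 8 of the 45320 genes counted, and all 8 were among the 17020 genes that passed a filter on low counts. The choice used the same libraries and the same knockdown comparison that are shown here, so the knockdown differences of the 8 genes, and any call on them, are given as a description and support nothing. Tests are read only for treatment effects within an arm, neighbours on the chromosome and lists of related genes. The lists were chosen with earlier results of these data known, so their counts are read as description.

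The study asked how ARID1A acts on estrogen receptor signaling in endometrial cancer, as its title puts it. Both arms were kept without phenol red and in charcoal-stripped serum, which lowers steroid hormones, for at least 4 days. Each arm then received the vehicle DMSO, 10 nM of the estrogen 17-beta-estradiol (E2), or 10 nM E2 together with fulvestrant, an antagonist that also causes loss of the estrogen receptor protein, for 8 h. Fulvestrant was given at what was read as 100 nM, since its zeros appear as the letter O in the labels. There are 2 libraries in each of the 6 groups and 12 in all, so each arm has 6. Nothing in the labels tells whether such a pair of libraries stems from different cultures, so p-values measure the spread between these libraries, which may be technical. The number of hairpins or lines per arm is not stated, and an effect of ARID1A cannot be told apart from other differences between the shARID1A and the shNC cells.

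ARID1A is a DNA-binding subunit of the BAF form of the SWI/SNF complex, which uses ATP to move nucleosomes and so opens or closes promoters and enhancers. It is among the genes most often mutated in endometrial cancer. The 8 genes do not belong to one pathway, and their proteins act outside the cell, at its surface or inside it. SCUBE1 is a secreted and surface-tethered protein with EGF-like and CUB domains, of a family that helps release Hedgehog ligands. LCN15 is a lipocalin, one of a family of small secreted carriers of hydrophobic molecules. VIT (vitrin) is a matrix protein with von Willebrand A domains. KIAA1199, now called CEMIP, binds hyaluronan and is needed for its breakdown outside the cell. DPEP1 is a membrane dipeptidase that acts on cysteinylglycine from glutathione and on leukotriene D4. GRID1 encodes GluD1, a member of the ionotropic glutamate receptor family that joins cerebellins and neurexins at synapses. GNG7 is a gamma subunit of heterotrimeric G proteins, known best from the striatum. MRO (maestro) is a HEAT-repeat protein first described in the developing male gonad of the mouse.

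Promoter sequence from RefSeq (build GRCh38.p14) was found for 6 of the 8 genes, KIAA1199 under its present symbol CEMIP. They had 10 promoters in all, each read over the 250 bases before the start. SCUBE1 and GRID1 are named only. Each of 6 motifs was searched on both strands in these windows. A TATA box (TATAAA) was in 3 of the 10 windows, against 10.7% of the 35116 promoters in the table. All 3 lay on the gene's strand with the first base 25 to 35 bases before the start, a position chosen after the matches were seen, which 2.17% of all promoters share. The 70 bases before those starts are shown because they hold this placed TATA box in 3 of the genes. Capitals mark the TATA box and, further from the start, a GC box in LCN15 and a TEAD motif (GGAATG) in DPEP1.

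LCN15, chr9:136764519-136764588, minus strand: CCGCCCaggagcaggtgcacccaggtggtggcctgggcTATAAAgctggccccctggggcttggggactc
DPEP1, the most downstream of 4 starts, chr16:89630200-89630269, plus strand: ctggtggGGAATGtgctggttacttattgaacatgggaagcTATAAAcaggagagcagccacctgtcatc
KIAA1199 (CEMIP), chr15:80779300-80779369, plus strand: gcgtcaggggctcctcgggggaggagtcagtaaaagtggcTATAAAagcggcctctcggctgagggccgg

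The promoters were otherwise unlike one another. The window of GNG7 held 7 GC boxes (CCGCCC, or GGGCGG on the other strand) and a cyclic AMP response element (TGACGTCA), and 81.2% of its bases were G or C. It is shown whole as the GC-rich extreme of the set, with GC boxes and the response element in capitals.

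GNG7, chr19:2702695-2702944, minus strand: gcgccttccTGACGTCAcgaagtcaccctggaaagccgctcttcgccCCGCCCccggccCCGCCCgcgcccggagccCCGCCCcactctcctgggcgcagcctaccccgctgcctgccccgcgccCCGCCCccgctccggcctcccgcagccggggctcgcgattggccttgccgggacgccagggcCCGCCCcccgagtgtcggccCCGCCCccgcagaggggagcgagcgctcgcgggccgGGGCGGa

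At the other end, 30.8% of the bases in the VIT window were G or C, and it held none of the 6 motifs. The median over all promoters was 58% G or C. GC boxes were in the windows of LCN15, GNG7 and KIAA1199, and 42.6% of all promoters have one. An AP-1 motif (TGANTCA), found in 6.57% of promoters, was in 1 of the 2 MRO windows. The cyclic AMP response element was in 1.65% of promoters and the TEAD motif in 11.9%. The full estrogen response element (the letters GGTCA, any 3 bases, then TGACC), which 0.0399% of all promoters hold, had no match in the 10 windows. The ratio of observed to expected CpG was at least 0.6, a usual mark of a CpG island, in 3 of the 10 windows (MRO, GNG7 and KIAA1199), compared with 47.5% of all promoters. No 2 different motifs overlapped in these windows, and a match describes the letters only. Whether these starts were in use in these cells was not tested.

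Library totals ran from 28810351 to 38657162 counts. ARID1A itself was measured at 109.8 to 123.2 CPM (counts per TMM-scaled library total, set to the same size for each library) in the 6 shNC libraries and at 53.7 to 61.6 CPM in the 6 libraries of shARID1A. The log2 difference was -0.96 under DMSO, -1.11 under E2 and -1.03 under E2 with fulvestrant, and the ratio of the arms' means was 0.489. The keratins KRT8 and KRT7 averaged 470 and 469 CPM, and HOXA11, a transcription factor of the uterus, averaged 44.96 CPM. Among 8 epithelial markers CDH1, KRT19 and CLDN4 were under 1 CPM. The estrogen receptor gene ESR1 averaged 0.551 CPM, and its target PGR had 0 counts in all 12 libraries. Mitochondrial genes took 4.76 to 5.12% of counts in shNC and 5.50 to 5.72% in shARID1A libraries. Fibroblast markers summed to 32.2 to 43.9 CPM in shNC and 50.0 to 53.2 CPM in shARID1A, almost all from COL1A1 and PDGFRB, while THY1 was at 0 throughout. Of the immune markers, CD3E had 0 counts in all 12 libraries. Neural markers summed to 196 to 224 CPM in shNC and 198 to 221 CPM in shARID1A, almost all from TUBB3 (mean 202 CPM), while SNAP25 averaged 7.85 CPM and RBFOX3 and GFAP were under 1 CPM. Epithelial markers summed to 1361 to 1493 CPM in shNC and 1056 to 1214 CPM in shARID1A, and endometrial gland markers to 61.6 to 69.4 CPM and 52.3 to 57.4 CPM. The arms thus did not overlap in the mitochondrial share or in these 3 marker sums, and the part of those differences in what follows was not tested. In bulk RNA, more cells with a transcript and more transcript per cell cannot be told apart.

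Of the 4 genes for secreted or matrix proteins, SCUBE1 and LCN15 differed most between the arms. In shNC cells SCUBE1 was at 1.76 and 1.28 CPM with DMSO, 2.36 and 1.62 CPM with E2, and 1.19 and 2.21 CPM with E2 and fulvestrant. With the ARID1A hairpin it was at 19.9 and 15.4 CPM, 18.6 and 17.6 CPM, and 19.7 and 14.4 CPM in the same order. Every shARID1A library was thus far above every shNC library, and the lowest of them was 6.12 times the highest shNC library. The fitted log2 difference was 3.53 with DMSO, 3.19 with E2 and 3.33 with E2 and fulvestrant, and 3.35 on average (SE 0.14), which is a 10.2-fold higher level.

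LCN15 had the highest mean CPM of the 8 in the knockdown, with no scaling for length. Its shNC values were 2.97 and 3.10 CPM with DMSO, 2.23 and 2.55 CPM with E2, and 2.94 and 1.47 CPM with E2 and fulvestrant. The shARID1A values were 21.8 and 20.4 CPM, 18.5 and 20.4 CPM, and 18.7 and 17.5 CPM. These groups also stood apart, with the lowest shARID1A library at 5.65 times the highest shNC library. The mean log2 difference was 2.95 (SE 0.11), or 7.72-fold. Within the E2 and fulvestrant treatment the fold rested on the control libraries: it was 8.15 with both and 12.4 without shNC replicate 1. With 1 library left out at a time, the log2 difference there ran from 2.62 to 3.63, beside 3.03 with all libraries.

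VIT and KIAA1199 differed by about 4-fold. VIT was at 0.910 and 1.45 CPM, 1.34 and 1.25 CPM, and 1.096 and 2.08 CPM in the DMSO, E2 and E2 with fulvestrant libraries of shNC. It was at 5.38 and 6.20 CPM, 4.57 and 4.11 CPM, and 5.93 and 4.86 CPM in those of shARID1A. The nearest libraries of the 2 arms, shNC with E2 and fulvestrant replicate 2 and shARID1A with E2 replicate 2, were 1.97-fold apart. Its mean log2 difference was 1.94 (SE 0.16). KIAA1199 held between 1.16 and 1.65 CPM in the 6 shNC libraries, the narrowest relative spread among the 8 in that arm (coefficient of variation 13.03%). In shARID1A libraries it was at 5.42 and 6.91 CPM with DMSO, 6.45 and 6.30 CPM with E2, and 5.25 and 4.69 CPM with E2 and fulvestrant. The groups did not overlap, and its mean log2 difference was 2.06 (SE 0.15).

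The 2 genes for membrane proteins are DPEP1 and GRID1. DPEP1 was close to the limit of counting in shNC cells, where it had 24 and 6 counts under DMSO, 11 and 6 counts under E2, and 0 and 12 counts under E2 plus fulvestrant. In CPM these were 0.728 and 0.202, 0.351 and 0.174, and 0 and 0.384. The shARID1A libraries held 2.51 and 2.76 CPM, 1.15 and 1.73 CPM, and 2.30 and 2.19 CPM. The highest shNC library (DMSO replicate 1) and the lowest shARID1A library (E2 replicate 1) were 1.58-fold apart, the smallest gap among the 8 genes. The mean log2 difference was 2.82 (SE 0.31), and the folds within a treatment depended on single control libraries. With DMSO the fold was 5.47, and it was 12.8 without shNC replicate 1 and 3.59 without shNC replicate 2. With E2 and fulvestrant it was 11.6, and 5.86 without shNC replicate 1. Leaving out shNC replicate 2 there leaves a single control at 0, against whose limit of 3 counts (0.0939 CPM) the shARID1A mean of 2.25 CPM is at least 23.9-fold higher.

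GRID1 had the highest mean CPM of the 8 in control cells, with no scaling for length. Its shNC libraries were at 4.67 and 4.01 CPM with DMSO, 2.10 and 4.61 CPM with E2, and 3.57 and 2.21 CPM with E2 and fulvestrant. Its shARID1A libraries were at 15.4 and 14.0 CPM, 15.7 and 16.1 CPM, and 15.0 and 13.9 CPM, the tightest set among the 8 (coefficient of variation 5.87%). No shARID1A library was within 2.98-fold of the highest shNC library. The mean log2 difference was 2.10 (SE 0.12). With E2 the fold was 4.65, and 7.53 without shNC replicate 2. With 1 library left out at a time, the log2 difference with E2 ran from 1.79 to 2.91, beside 2.22 with all libraries.

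GNG7 and MRO encode proteins inside the cell. GNG7 was at 1.67 and 1.01 CPM, 1.21 and 1.42 CPM, and 1.19 and 1.31 CPM in shNC with DMSO, E2, and E2 with fulvestrant. It was at 6.93 and 5.59 CPM, 5.43 and 5.13 CPM, and 5.93 and 4.35 CPM in shARID1A. The groups were at least 2.61-fold apart at their nearest libraries, and the mean log2 difference was 2.08 (SE 0.16), or 4.22-fold. MRO had 0 to 14 counts in the shNC libraries, which is 0.394 and 0.337 CPM with DMSO, 0.319 and 0.116 CPM with E2, and 0.438 and 0 CPM with E2 and fulvestrant. With the ARID1A hairpin it was at 2.58 and 2.46 CPM, 1.85 and 3.16 CPM, and 2.54 and 3.04 CPM. All 6 were at least 4.23 times the highest shNC library. The mean log2 difference was 3.32 (SE 0.30). MRO's fold with E2 was 11.8, and 21.4 without shNC replicate 1. With 1 library left out at a time, its log2 difference with E2 ran from 2.99 to 4.42, beside 3.57 with all libraries. With E2 and fulvestrant the fold was 12.4, and 6.33 without shNC replicate 2. Without shNC replicate 1 the only control is at 0, whose limit of 3 counts is 0.0961 CPM, and the shARID1A mean of 2.79 CPM is at least 29-fold above it.

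**Figure D1:**
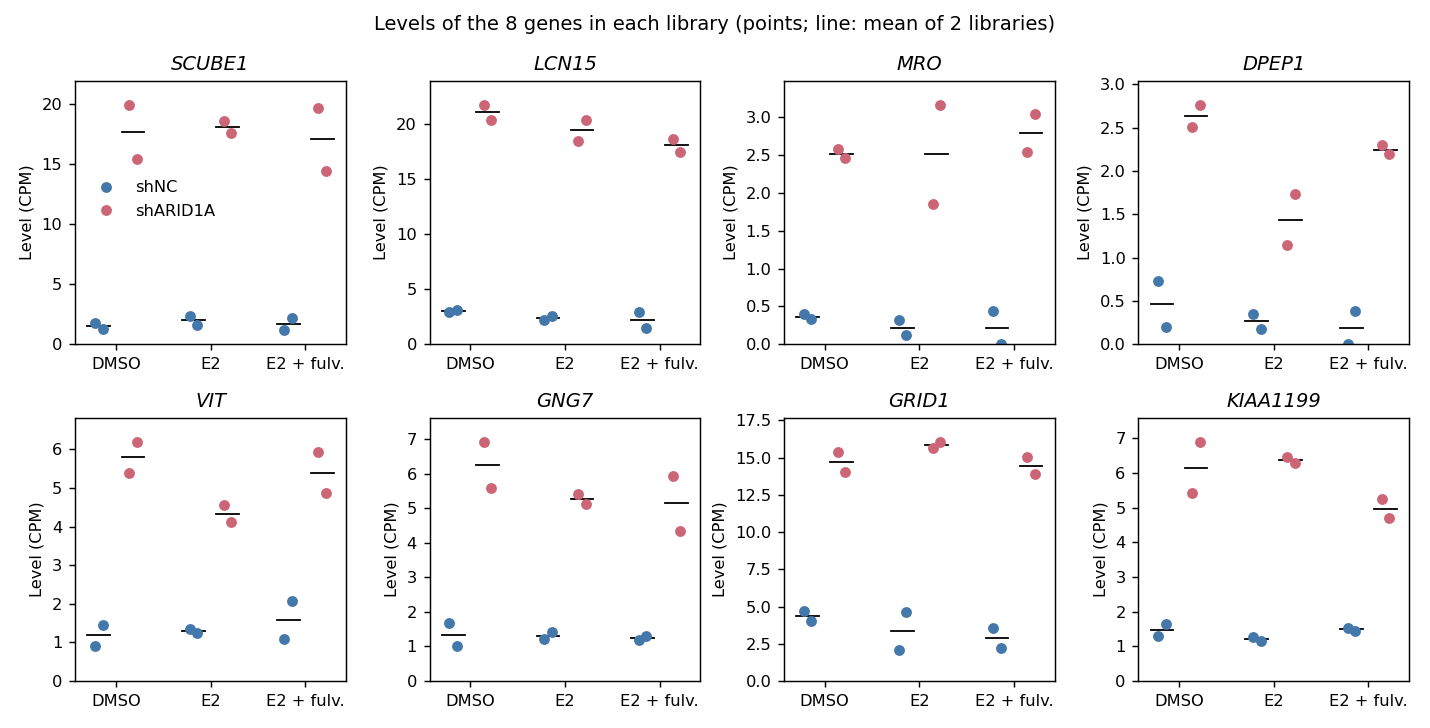
Level of each of the 8 genes in CPM (vertical axes, each starting at 0) in every library, by treatment, with shNC in blue, shARID1A in red and a line at the mean of the 2 libraries of a group. In each panel the red points of all 3 treatments lie above all the blue points, from 1.58 times the highest blue point for DPEP1 to 6.12 times for SCUBE1.

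Side by side, all 8 genes had every shARID1A library above every shNC library, which holds for 11.4% of the 17020 genes tested. For 6 of the 8 (all but DPEP1 and VIT) the lowest shARID1A library was at least 2 times the highest shNC library, as for 0.27% of genes tested. Each of the 8 was called higher in all 3 treatments by edgeR, which is true of 6.76% of genes tested. Within single treatments 9.7% of genes were called higher with DMSO, 13.4% with E2 and 11.4% with E2 and fulvestrant. Since the 8 were picked for this difference, nothing is read from these counts. The median log2 difference over the 8 was 2.38 with DMSO, 2.44 with E2 and 2.67 with E2 and fulvestrant, beside medians over all tested genes of -0.01, -0.02 and -0.03.

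**Figure D2:**
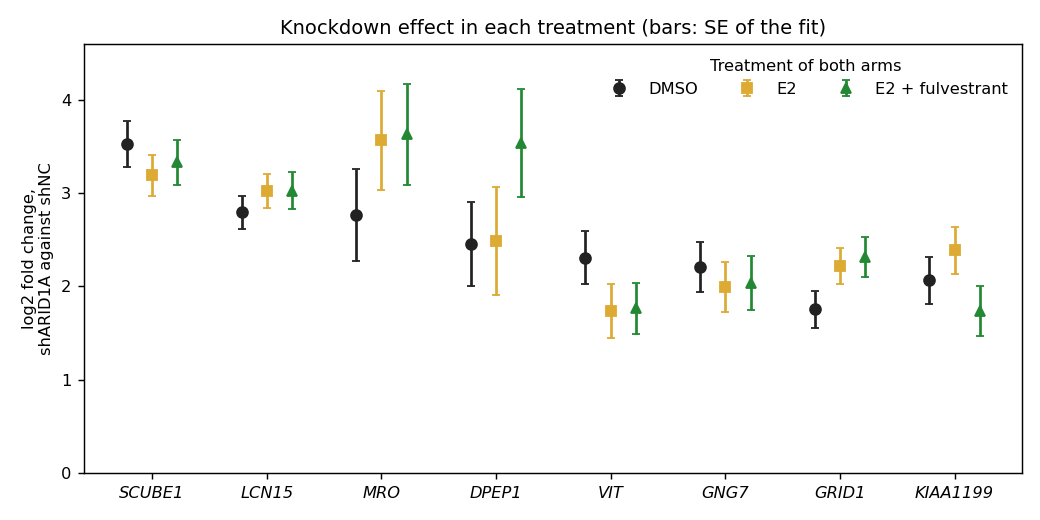
Log2 fold change of shARID1A against shNC (vertical axis) for each of the 8 genes under DMSO (circles), E2 (squares) and E2 with fulvestrant (triangles), with bars of 1 SE from the edgeR fit. All 24 values lie between 1.74 and 3.63, and the bars are longest for MRO and DPEP1, which had the fewest control counts.

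The description of these genes as silent and as the most derepressed held in part. In shNC cells 5.75% of tested genes had a lower mean than MRO and 7.58% a lower mean than DPEP1. For the other 6 this share was 24.5 to 35.3%, so they were low but measured in every control library. By size of the mean increase the 8 ranked 10th (SCUBE1), 11th (MRO), 15th (LCN15), 17th (DPEP1), 37th (GRID1), 39th (GNG7), 40th (KIAA1199) and 52nd (VIT) of 17020. A plain reading of the description, with a shNC mean no higher than that of GRID1 (3.53 CPM) and a fitted log2 increase in each treatment no smaller than the lowest among the 8 (1.74), was met by 24 genes. The 16 others were mostly rare: 12 had at least 1 shNC library at 0, and 2 reached a mean of 2 CPM in shARID1A. Those 2 were SEMA5A, a semaphorin of axon guidance, which went from 0.864 to 4.59 CPM, and ENSG00000250619.1, which went from 0.687 to 3.90 CPM. The transcription factor KLF15 had 0 counts in all 6 shNC libraries and 0.0343 to 0.709 CPM in shARID1A. The same was true of ENSG00000231013.1, at 0.103 to 0.594 CPM. OCA2, a melanosomal transport protein, averaged 0.349 CPM in shARID1A and had 5 shNC libraries at 0. MYCL, a MYC family transcription factor, went from 0.0915 to 0.835 CPM, and GYG2, a glycogenin that primes glycogen, from 0.106 to 0.672 CPM. ENSG00000258285.1 and ENSG00000272259.1 completed the 8 other genes with the largest increases, ranked by the lowest of their 3 treatments, at 0.553 and 0.352 CPM in shARID1A. Just outside the edge set by KIAA1199, whose lowest increase was 1.74, were MMP28, a matrix metalloproteinase (1.72), and RASGEF1C (1.66), while VIT was just inside (1.74).

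Levels of different genes were compared per kilobase of counted exon. In shARID1A cells the order was GNG7 (7.69 ± 1.19 CPM per kb, SD over 6 libraries), LCN15 (6.77 ± 0.55), SCUBE1 (5.26 ± 0.68), KIAA1199 (4.42 ± 0.64), GRID1 (4.16 ± 0.24), VIT (1.75 ± 0.27), MRO (1.22 ± 0.22) and DPEP1 (0.901 ± 0.249). Neighbours in this order overlapped in range for GNG7 with LCN15, SCUBE1 with KIAA1199, KIAA1199 with GRID1, VIT with MRO, and MRO with DPEP1. LCN15 lay wholly above SCUBE1, and GRID1 wholly above VIT. In shNC cells GNG7 was again first (1.80 CPM per kb), then KIAA1199 (1.06), GRID1 (0.977), LCN15 (0.882), SCUBE1 (0.518), VIT (0.457), DPEP1 (0.131) and MRO (0.126). The order of the means thus differed between the arms. SCUBE1 was below LCN15, GRID1 and KIAA1199 in shNC and above GRID1 and KIAA1199 in shARID1A. In shNC its range (0.355 to 0.704) overlapped those of LCN15 (0.510 to 1.07) and GRID1 (0.583 to 1.29) and lay below that of KIAA1199. In shARID1A the range of SCUBE1 overlapped those of GRID1 and KIAA1199.

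These levels rest on the exon models the authors counted over (hg19), which cover some of the genes in part. The GNG7 model, at chr19:2514991-2683689 on the minus strand, held 723 exon bases, or 17.2% of the length of the longest coding GENCODE 29 transcript. For KIAA1199 (chr15:81225767-81241503, plus strand) it held 1320 bases, or 17.9%. The models of SCUBE1 (chr22:43627762-43739329, minus strand) and MRO (chr18:48324574-48346389, minus strand) reached 34.2% and 40.5%. Of all 10951 genes that could be matched, 17.4% were under 50%, as these 4 of the 8 were, and the median was 111%. GRID1 (chr10:87361734-88126250, minus strand) stood at 61.9%, VIT (chr2:36923948-37041930, plus strand) at 105% and DPEP1 (chr16:89679957-89704806, plus strand) at 135%. LCN15 (chr9:139654086-139660707, minus strand) went the other way. Its model had 2887 bases against 762 in the longest coding transcript, and a single stretch of 2386 bases made up 82.6% of it. Reads elsewhere in the 8 genes were not analysed here. The promoter windows shown above are on another build (GRCh38.p14), and their place relative to the counted models was not tested.

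Strand was not used in counting, so a share of some models cannot be assigned to one gene. SCUBE1 shared 10.6% of its counted bases with ENSG00000234892.1, GRID1 5.43% with RP11-93H12.4, and KIAA1199 7.73% with MESDC2 and RP11-351M8.2. Of these only MESDC2 passed the filter on low counts, with 40.1 CPM in shNC and 47.5 CPM in shARID1A (log2 difference 0.25, SE 0.05). Its share in the KIAA1199 counts was not tested. The other 5 genes shared no exon base with another gene.

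Differences between treatments within an arm were not used to choose the genes. None of the 8 genes responded to E2 or to fulvestrant by the test in either arm. In shNC cells, edgeR's quasi-likelihood test with Benjamini-Hochberg adjustment over 17020 genes called 0 of the 8 for E2 against DMSO, where 0.00588% of all genes were called. It called 0 for E2 with fulvestrant against E2 (0.00588% of all genes) and 0 for E2 with fulvestrant against DMSO (0.0118%). In shARID1A cells it also called 0 of the 8 in each, beside 0.0235%, 0.00588% and 0% of all genes. DESeq2 called 0 as well, and gave an adjusted p for 32 of the 48 values. Few genes of any kind responded to the treatments in these libraries, and ESR1 was at the low level given above, whose part was not tested. At an unadjusted p under 0.05, edgeR marked 3 of the 48 values for the 8 genes.

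These 3 values were decreases. DPEP1 in shARID1A cells averaged 2.64 ± 0.18 CPM (SD, n = 2) with DMSO, 1.44 ± 0.41 CPM with E2 and 2.25 ± 0.07 CPM with E2 and fulvestrant. The 2 E2 libraries were the lowest of that arm. The log2 difference of E2 against DMSO was -0.85 (SE 0.34, edgeR adjusted p = 0.703). VIT showed the same order in shARID1A cells, with 5.79 ± 0.58 CPM with DMSO, 4.34 ± 0.33 CPM with E2 and 5.396 ± 0.759 CPM with E2 and fulvestrant. Its log2 difference of E2 against DMSO was -0.42 (SE 0.21, edgeR adjusted p = 0.753). In that comparison 6.61% of all genes had an unadjusted p under 0.05. GRID1 in shNC cells was lower with E2 and fulvestrant than with DMSO by a log2 difference of -0.59 (SE 0.28, edgeR adjusted p = 0.514), where 9.49% of all genes had an unadjusted p under 0.05. None of the 8 did in the other 4 comparisons, where that share was 3.85% and 7.78% in shNC cells (E2 against DMSO, and E2 with fulvestrant against E2) and 9.78% and 4.08% in shARID1A cells (E2 with fulvestrant against E2 and against DMSO).

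The precision of these comparisons differed between the arms. For the 6 genes other than MRO and DPEP1, all treatment effects in shARID1A cells lay between -0.42 and 0.32 on the log2 scale, and their 95% intervals reached from -0.84 to 0.75. In shNC cells, with fewer counts, the effects of the same 6 lay between -0.59 and 0.44, with intervals reaching from -1.16 to 1.23. For MRO and DPEP1 in shNC cells the intervals reached from -3.04 to 2.09, so changes of several-fold were not detectable at this depth. A missed threshold does not show that the treatments had no effect.

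**Figure D3:**
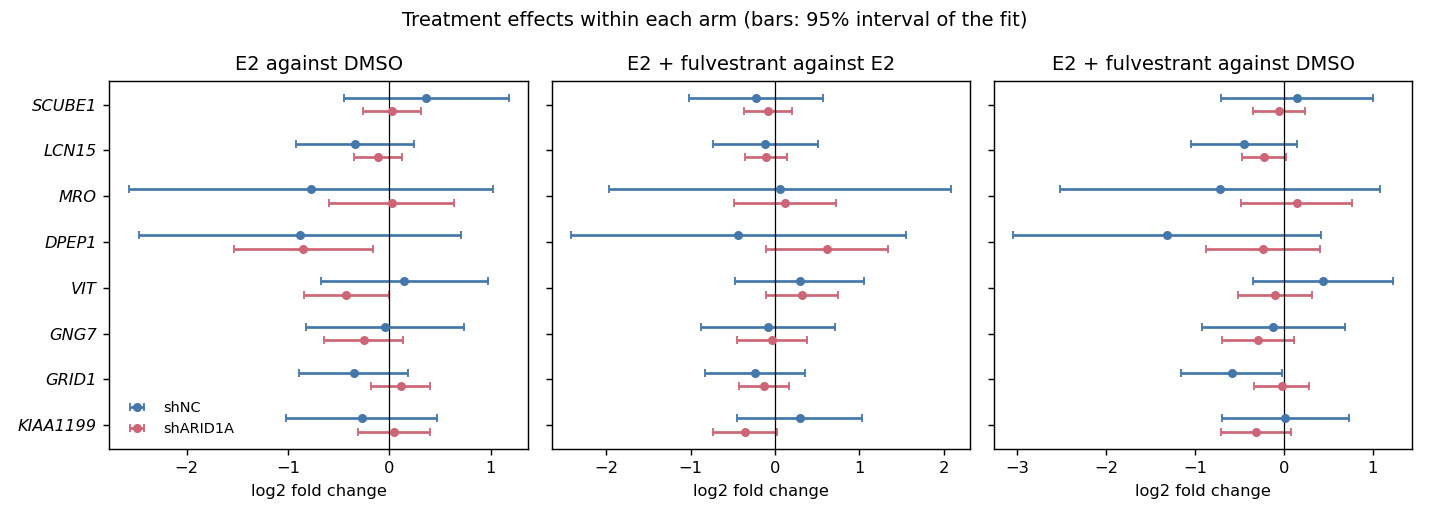
Log2 fold change between treatments (horizontal axes) for each of the 8 genes within shNC (blue) and shARID1A (red) cells, with bars for the 95% interval. The red bars are shorter than the blue ones for every gene, and all bars cross 0 except 3: DPEP1 and VIT (E2 against DMSO, shARID1A) and GRID1 (E2 with fulvestrant against DMSO, shNC).

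Whether a treatment changed the size of the knockdown difference was computed as the difference between the arms. The choice of genes bears on this comparison, because a gene without a knockdown difference under one of the treatments could not be among the 8, and nothing is read from the counts. edgeR called 0 of the 8 genes in each of the 3 such comparisons, beside 0.0294% of all genes for E2 against DMSO, 0.0118% for E2 with fulvestrant against E2 and 0% for E2 with fulvestrant against DMSO. None of the 24 values had an unadjusted p under 0.05, beside 6.34%, 3.48% and 4.78% of all genes in the same 3 comparisons, and the smallest adjusted p was 0.842 (GRID1, E2 against DMSO). DESeq2 called 0 of 24. The widest change was that of DPEP1, whose knockdown difference was larger by 1.08 on the log2 scale with E2 and fulvestrant than with DMSO (SE 0.91). Without the shNC library at 0 counts the DPEP1 fold with E2 and fulvestrant was 5.86, beside 5.47 with DMSO. The DMSO fold moved as well, to 12.8 without its shNC replicate 1 and 3.59 without its shNC replicate 2. For KIAA1199 the difference was smaller with E2 and fulvestrant than with E2 by -0.65 (SE 0.41).

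Genes near the 8 were then examined, as a readout the choice had not used. All genes with an exon within 500 kb of one of the 8 were taken, 252 in all, of which 154 passed the filter on low counts. Distances run from the counted models, so they are not distances from the true gene ends where a model covers a gene in part, as for KIAA1199 and GNG7. Averaged over the 3 treatments, edgeR called 59 of the 154 (38.3%) higher and 25 (16.2%) lower in shARID1A. Over all tested genes 20.3% were called higher and 22.8% lower. Of the 154, 4 were more than 2-fold higher and 5 more than 2-fold lower, beside 1.62% and 4.24% of all tested genes. The median log2 difference of the 154 was 0.12 beside -0.02 over all genes. Within 100 kb, a distance chosen after the values were seen, 24 of 43 were called higher and 5 lower. A pair of gene-dense regions gave most of the calls higher within 500 kb, but not most of the calls lower. Around LCN15 21 of 48 tested neighbours were called higher and 6 lower, where 20.8% of the tested genes of chromosome 9 were called higher and 22.8% lower. Around GNG7 it was 17 of 32 higher and 3 lower, with 26% of chromosome 19 genes called higher and 16% lower. Without these 2 regions 21 of 74 neighbours (28.4%) were higher and 16 (21.6%) lower.

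The other regions held fewer tested genes. Around DPEP1 9 of 34 were called higher and 6 lower, close to the 28.5% and 13.3% of chromosome 16. Around VIT the balance was the other way, with 2 of 15 higher and 7 lower, while 15.9% of chromosome 2 genes were called higher and 26.3% lower. SCUBE1 had 3 of 8 higher and 1 lower, MRO 2 of 6 each way, GRID1 1 of 5 higher and none lower, and KIAA1199 4 of 6 higher and none lower. The corresponding shares called higher and lower were 26.4% and 14% for chromosome 22, 13.8% and 23% for chromosome 18, 16.4% and 27.5% for chromosome 10, and 16.5% and 23.4% for chromosome 15.

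MAPK4, an atypical MAP kinase 66.4 kb downstream of MRO, changed most among the neighbours named by the smallest adjusted p. It rose from 7.68 ± 1.23 CPM in shNC (SD, n = 6) to 25.5 ± 3.2 CPM in shARID1A, a log2 difference of 1.73 (SE 0.09, edgeR adjusted p = 6.3e-17). Beside DPEP1, SPIRE2, an actin nucleator, rose from 58.7 to 102.3 CPM (log2 difference 0.80, SE 0.04). Beside LCN15, AGPAT2, an enzyme of phosphatidic acid synthesis, rose from 110.7 to 176 CPM (0.67, SE 0.04). ABHD17C, a depalmitoylase near KIAA1199, rose by 0.51 (SE 0.06), TIMM13, a chaperone of mitochondrial import near GNG7, by 0.49 (SE 0.04), and TSPO, a protein of the outer mitochondrial membrane near SCUBE1, by 0.34 (SE 0.04). FEZ2, 50.7 kb from VIT, fell from 50.1 to 35.9 CPM (-0.48, SE 0.05). Near GRID1 only ENSG00000227896.2 was called (0.50, SE 0.16, edgeR adjusted p = 0.012), and its adjusted p was 0.055 without shNC DMSO replicate 2 and 0.055 without shNC E2 with fulvestrant replicate 1. Named after its value was seen, the transcription factor gene ARNT2, 340 kb upstream of the counted part of KIAA1199, went from 0.677 to 1.83 CPM (1.45, SE 0.23). None of the neighbours named by the smallest adjusted p reached the log2 difference of the gene it lies beside. The 8 were chosen for large differences, so nothing is read from this. ENSG00000270919.1 near KIAA1199, also named after its value was seen, stood at 2.10 (SE 0.62), beside 2.06 for KIAA1199. It was near the limit of counting, at 0.0826 CPM in shNC and 0.316 CPM in shARID1A.

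**Figure D4:**
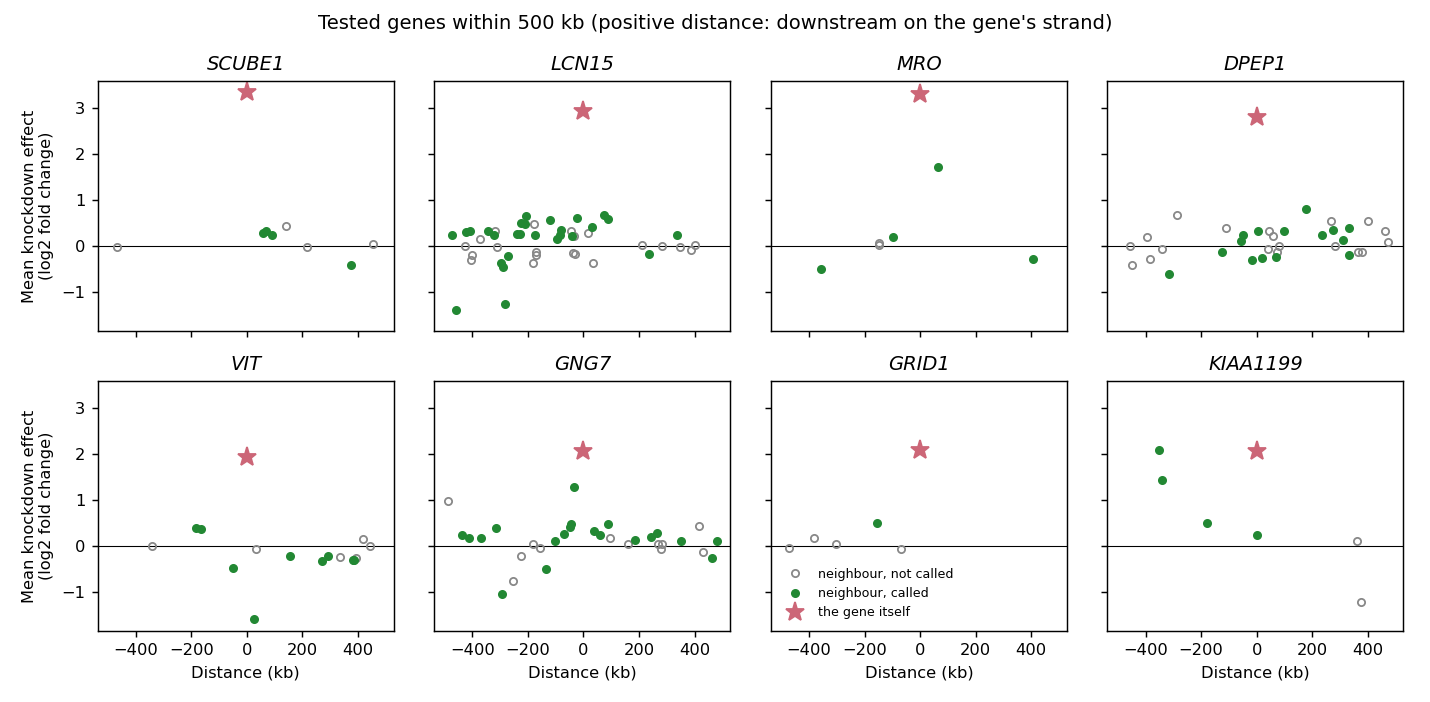
Mean knockdown effect on the log2 scale (vertical axes) of the tested genes within 500 kb of each of the 8 genes against their distance in kb (horizontal axes, positive downstream on the gene's strand), with called neighbours filled and the gene itself as a star. The 8 stars lie at 1.94 to 3.35, while neighbours lie mostly within 1 of 0, with ENSG00000270919.1 (2.10) and ARNT2 (1.45) near KIAA1199 and MAPK4 (1.73) near MRO the highest of the 9 beyond it.

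Genes related in function to each of the 8 were read from 8 lists, which were chosen with earlier results of these data known. Of 147 listed genes 65 passed the filter on low counts. Over the mean of the 3 treatments edgeR called 12 of the 65 higher (18.5%) and 21 lower (32.3%), beside 20.3% and 22.8% of all tested genes. Their median log2 difference was -0.06, compared with -0.02 over all genes.

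Of 13 tested Hedgehog pathway and SCUBE family genes, 1 rose and 3 fell. The 1 that rose was SCUBE3, from 1.71 to 2.45 CPM (log2 difference 0.53, edgeR adjusted p = 0.011). BOC, a Hedgehog co-receptor, fell from 2.05 to 0.621 CPM (-1.74, adjusted p = 5.2e-07), GLI3, a transcription factor of the pathway, fell from 20.04 to 15.4 CPM (-0.37), and HHAT, which palmitoylates Hedgehog ligands, from 12.1 to 8.85 CPM (-0.46). The receptor and target gene PTCH1 was at 25.8 CPM in shNC and 26.4 CPM in shARID1A (0.03, edgeR adjusted p = 0.69).

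Among 7 tested lipocalins 1 rose and 2 fell. Some of the 7, PTGDS and C8G among them, lie within 500 kb of LCN15 and were also counted as its neighbours. PTGDS, the lipocalin-type prostaglandin D synthase, rose from 2.93 to 4.09 CPM (log2 difference 0.49, edgeR adjusted p = 0.0045). RBP4, the retinol carrier, averaged 0.407 CPM in shNC and had 0 counts in all 6 shARID1A libraries. Against a limit of 3 counts per library it was at least 4.2-fold lower. LCN2, which binds bacterial siderophores, was at 0.346 and 0.133 CPM, near the limit of counting (edgeR adjusted p = 0.025), and DESeq2 gave an adjusted p of 0.060. C8G, a complement component with a lipocalin fold, was at 1.25 and 1.80 CPM (edgeR adjusted p = 0.065). None of the 3 tested maestro family genes was called: MROH6 was at 35.2 and 33.0 CPM, MROH1 at 30.6 and 28.9 CPM, and MROH8 at 29.8 and 28.9 CPM in shNC and shARID1A.

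In the list of glutathione and leukotriene breakdown, the setting of DPEP1, 1 of 8 tested genes rose and 5 fell. ANPEP, an aminopeptidase that cleaves cysteinylglycine, fell from 195 to 118 CPM (log2 difference -0.72, edgeR adjusted p = 5.5e-17). CHAC1, which cleaves glutathione in the cytosol, fell by 0.42 and ALOX5, the first enzyme of leukotriene synthesis, fell by 0.67 on the same scale. OPLAH, the 5-oxoprolinase, rose by 0.35 (from 42.9 to 54.8 CPM). The list for VIT held matrix proteins with von Willebrand A domains and also proteins with LCCL domains, some of them in the membrane. Of its 9 tested genes 2 rose and 4 fell. The fibril-associated collagen COL12A1 fell from 197 to 138 CPM (-0.52), the LCCL-domain membrane protein DCBLD1 from 23.9 to 12.7 CPM (-0.91) and CRISPLD1 from 9.72 to 5.01 CPM (-0.96). CRISPLD2, a secreted protein with LCCL domains like VIT, rose by 0.35.

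The G protein beta and gamma list was the only one of the 8 with members that rose and none that fell, 3 of 8. GNB4 rose from 21.5 to 33.6 CPM (log2 difference 0.64, edgeR adjusted p = 2.3e-10), and the abundant GNB1 and GNB2 by 0.17 and 0.16. All 3 are beta subunits, the partners of gamma subunits. The gamma subunit GNG5 was at 51.4 and 54.98 CPM (0.09, edgeR adjusted p = 0.11).

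Of 9 ionotropic glutamate receptors and partners 2 rose and 2 fell. NRXN3, a neurexin of the presynaptic side, rose from 8.14 to 12.9 CPM (log2 difference 0.67). CBLN2, a cerebellin that links neurexins to GluD receptors, rose from 0.127 to 0.495 CPM (2.02, edgeR adjusted p = 0.0017), and its adjusted p was 0.101 without shARID1A DMSO replicate 1. The kainate receptor gene GRIK2 fell from 4.19 to 1.82 CPM (-1.18). GRIP2, a scaffold of glutamate receptors, was at 1.96 and 1.32 CPM (edgeR adjusted p = 0.048) and was not called by DESeq2 (adjusted p = 0.114). Of 8 genes of hyaluronan synthesis, binding and breakdown 2 rose and 5 fell. CD44, the main hyaluronan receptor, fell from 258 to 149 CPM (-0.80, edgeR adjusted p = 1.1e-18). UGDH, which makes the UDP-glucuronic acid that hyaluronan is built from, fell by 0.38, and TMEM2, described as a cell-surface hyaluronidase, fell by 0.24. The hyaluronidase family gene HYAL3 rose from 9.65 to 15.3 CPM (0.67).

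**Figure D5:**
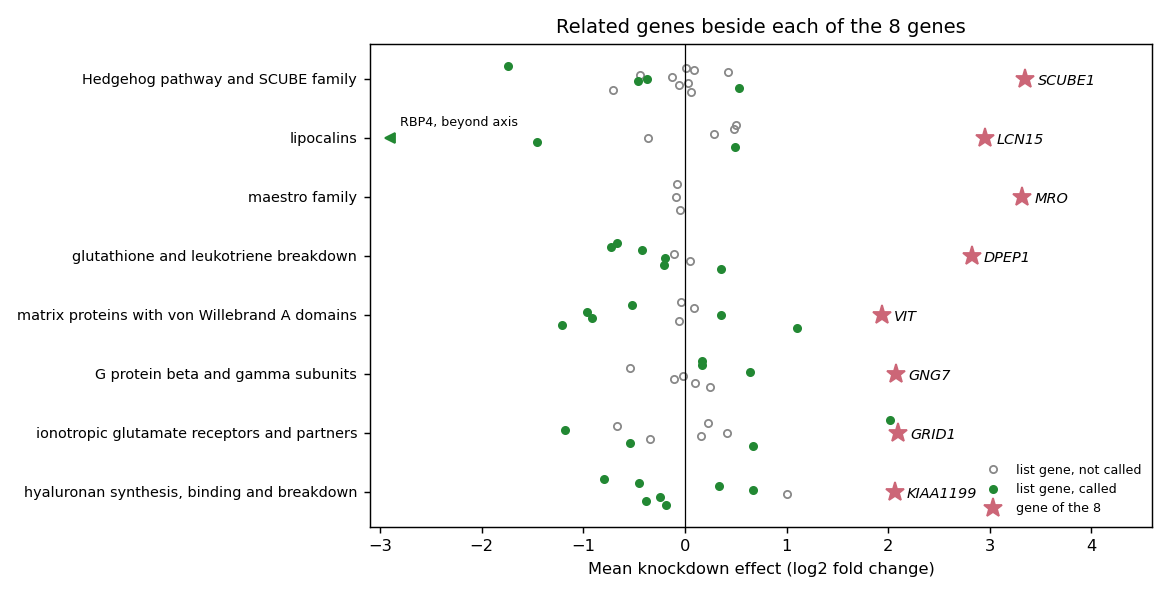
Mean knockdown effect on the log2 scale (horizontal axis) of the tested genes of each list (rows), filled where edgeR called them, with the gene of the 8 that the list belongs to as a star. RBP4, with 0 counts in every shARID1A library, is drawn at the left edge with no fold, and the list genes lie mostly between -1 and 1 while the stars lie at 1.94 to 3.35.

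The shared pattern of the 8 genes over the 12 libraries, taken as the mean of their standardized log2 levels, was mostly the difference between the arms. Their own Pearson correlations with it ran from 0.86 (DPEP1) to 0.99 (LCN15). The other tested genes were ranked by their correlation with it, leaving out those named only by an Ensembl identifier. Over 12 libraries that share the 2 arms, 1091 of 14227 genes (7.67%) correlated with it above 0.9 and 885 (6.22%) below -0.9. The most alike were PTDSS2, a phosphatidylserine synthase (r = 0.997), CASP9, the initiator caspase of the mitochondrial pathway (0.997), HMG20B, a member of a corepressor complex (0.996), GDPD5, PPP2R2B, TBX1, COL18A1 and RAP1GAP2 (0.994). These genes were well expressed in control cells. PTDSS2 went from 211 to 487 CPM, CASP9 from 32.9 to 140 CPM, and COL18A1, the collagen from which endostatin is cut, from 67.3 to 140 CPM. Within an arm the correlations between the 8 genes were spread widely around 0. Over the 28 pairs of genes the median correlation was -0.11 in the 6 shNC libraries (range -0.82 to 0.90) and 0.17 in the 6 shARID1A libraries (range -0.60 to 0.79), with few counts for MRO and DPEP1 in shNC.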

How the data were processed

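The authors deposited one table of raw counts per library, whole numbers of reads per gene with no normalization. Per the submitters' processing notes the build was hg19 and the tools were cutadapt, Trim Galore, FastQC, Subread 2.0.0 and featureCounts 2.0.0. Counting took no strand setting, per the file headers. The model was edgeR 4.0.16 under R 4.3.3 (filterByExpr by group, TMM scaling, 1 mean per group over all 12 libraries, quasi-likelihood F-test). All 13 contrasts were adjusted by Benjamini-Hochberg over 17020 genes, with calls at an adjusted p under 0.05. The mean knockdown contrast averages the 3 treatments. CPM use TMM-scaled totals, and 3 counts, the limit a count of 0 allows, are 0.0811 to 0.103 CPM (counting error only). Fits were tested on simulated data. Alternatives were DESeq2 1.42.0, its size factors in edgeR, no filter, a replicate block and each library left out. The 8 genes and all lists were chosen with earlier results of these data known. Named by rule were, per gene, the neighbour with the smallest adjusted p, per list up to 4 genes with the smallest, the 8 most alike genes and the 8 largest others meeting the description. PTCH1, SEMA5A, MMP28, RASGEF1C, MESDC2, ARNT2 and ENSG00000270919.1 were named after their values were seen.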

Additional observations from a re-analysis of the deposited data

How the results depend on the processing

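Counting depth limits MRO and DPEP1 most, since single control libraries with few or 0 counts set their folds, and 2 libraries per group leave the spread within a group poorly known. All 384 recomputed knockdown values of the 8 genes stayed above 0, and 17 moved by more than 1 SD. The genes were chosen for higher levels in shARID1A, and every shARID1A library lay above every shNC library. The sign was thus all but fixed in advance, and nothing is read from it. The median log2 difference over the 8 genes ran, with 1 library left out at a time, from 2.37 to 2.70 with DMSO, 2.30 to 2.69 with E2 and 2.46 to 2.72 with E2 and fulvestrant. Under the other 4 alternatives it ran from 2.38 to 2.40, 2.43 to 2.44 and 2.67 to 2.69. The count of the 8 genes called for a treatment, or for a difference between arms, was 0 under each alternative. Neighbours called numbered 51 to 60 higher and 20 to 26 lower, and list genes 11 to 14 higher and 18 to 23 lower. Of 768 recomputed values of 48 genes (ARID1A and the neighbours, list genes and most alike genes named by rule), 19 lost their call, 3 gained one and 0 changed direction. LCN2 and GRIP2 account for most losses, and C8G and GNG5 for the gains. Replicate numbers did not pair the samples: same-numbered libraries' deviations from their group means correlated at -0.22 to 0.28 over 15 pairs of groups. With the replicate block the medians over the 8 genes were 2.38, 2.43 and 2.67.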
